A study of Mus musculus with 6 samples.

Results

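The genes described here are the receptors and ligands of the Notch pathway, 9 of the 21887 protein-coding genes of the annotation. The 4 receptors are Notch1, Notch2, Notch3 and Notch4, and the 5 ligands are Jag1, Jag2, Dll1, Dll3 and Dll4. They were chosen by name. The quantity measured was H3K4me3, a histone mark of the promoters of active and poised genes, as peaks called from chromatin immunoprecipitation and sequencing. The cells were Lgr5-positive progenitors, sorted by green fluorescence from cultured cochleae of C57BL/6 Lgr5-EGFP-creERT2 mice of either sex aged 0 to 3 days after birth. The neomycin group was exposed for 12 h to neomycin, an aminoglycoside that kills hair cells, and had 2 libraries. The untreated group had 2 libraries from the same kind of mice, culture medium and sort without the drug. Nothing in the labels tells if the 2 libraries of a group are separate cultures, so the spread between them may be technical. The input library of each group was not analysed here. The labels name 1 H3K4me3 antibody throughout, but the deposited names of the untreated lists read H3K4me2, which leaves the mark in the untreated lists uncertain.

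Notch receptors are single-pass membrane proteins that are cut after they bind a Jagged or Delta-like ligand on a neighbouring cell, and the freed intracellular part acts with Rbpj in the nucleus. In the developing organ of Corti, Dll1 and Jag2 on hair cells signal through Notch1 on supporting cells, and this keeps supporting cells from becoming hair cells. Jag1 is made by the prosensory domain and later by supporting cells. Jag1 and Jag2 are Jagged ligands, Dll1 and Dll4 are activating Delta-like ligands, and Dll3 acts mainly inside the cell that makes it and does not activate Notch on neighbours. Notch4 and Dll4 are best known from endothelium, and Notch3 from the smooth muscle of vessels.

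The upstream sequences of 5 of these genes are shown because they span the range of marking, with peaks at the start site in all 4 libraries (Notch1 and Jag1), in the untreated libraries alone (Dll4), in 1 library (Dll3) and in none (Notch4). Each is the 250 bases before the RefSeq start on the gene's strand, 5′ to 3′ in GRCm38.p6 (mm10), and capitals mark CpG dinucleotides. They lie at chr2:26503823-26504072 (Notch1, minus strand), chr2:137116521-137116770 (Jag1, minus strand), chr2:119325534-119325783 (Dll4, plus strand), chr7:28301786-28302035 (Dll3, minus strand) and chr17:34564045-34564294 (Notch4, plus strand).
Notch1: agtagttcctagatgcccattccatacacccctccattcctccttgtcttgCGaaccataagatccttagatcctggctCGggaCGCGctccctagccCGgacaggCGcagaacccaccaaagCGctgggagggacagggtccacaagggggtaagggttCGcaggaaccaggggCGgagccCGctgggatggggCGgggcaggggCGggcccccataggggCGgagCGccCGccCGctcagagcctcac
Jag1: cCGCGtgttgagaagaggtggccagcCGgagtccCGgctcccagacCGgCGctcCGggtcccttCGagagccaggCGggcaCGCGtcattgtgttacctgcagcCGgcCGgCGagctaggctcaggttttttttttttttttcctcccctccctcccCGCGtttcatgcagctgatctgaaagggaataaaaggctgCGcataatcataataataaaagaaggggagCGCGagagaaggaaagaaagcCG
Dll4: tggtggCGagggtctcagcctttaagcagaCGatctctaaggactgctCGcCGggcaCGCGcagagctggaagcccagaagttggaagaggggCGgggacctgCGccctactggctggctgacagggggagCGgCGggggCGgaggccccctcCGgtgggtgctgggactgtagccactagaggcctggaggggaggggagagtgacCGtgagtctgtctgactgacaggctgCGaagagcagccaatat
Dll3: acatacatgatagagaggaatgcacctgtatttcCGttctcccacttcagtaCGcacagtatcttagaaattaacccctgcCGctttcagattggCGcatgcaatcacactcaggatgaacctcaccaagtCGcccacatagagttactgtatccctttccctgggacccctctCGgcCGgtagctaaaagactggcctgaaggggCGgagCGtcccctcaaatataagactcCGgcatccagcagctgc
Notch4: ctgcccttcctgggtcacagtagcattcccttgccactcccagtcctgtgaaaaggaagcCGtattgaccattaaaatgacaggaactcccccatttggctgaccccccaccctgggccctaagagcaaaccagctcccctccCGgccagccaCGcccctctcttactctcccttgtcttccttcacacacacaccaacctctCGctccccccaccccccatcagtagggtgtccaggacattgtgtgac
The Jag1 and Notch1 stretches held 20 and 16 CpGs, Dll4 held 14, Dll3 held 10 and Notch4 held 4.

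The 4 peak lists held 14203 and 11545 peaks for neomycin replicates 1 and 2 and 15938 and 10520 for untreated replicates 1 and 2. They give no read totals, so sequencing depth is unknown. The lists also differ in how short a peak can be: the shortest peak was 48 and 110 bp with neomycin, against 187 and 234 bp untreated. The caller's pileup, the height of the read stack at a peak's summit, started at 5 and 7 with neomycin and at 7 and 6 without. A start site was called marked when a peak overlapped the 1 kb either side of it by at least 1 bp, which was so for 34.8% and 33.6% of all genes in neomycin cells and for 47.0% and 36.3% in untreated cells. A missing peak is read as not called, since the lists do not show whether the mark was absent.

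Of the 9 receptor and ligand genes, 5 and 5 were marked at a start site in neomycin replicates 1 and 2, and 8 and 5 in untreated replicates 1 and 2. Untreated replicate 1, the longest list, stood above the other libraries. Notch1, Jag1 and Dll1 were marked in all 4 libraries, against 16.6% of all genes. Dll4 was not marked with neomycin and was marked in both untreated libraries, a pattern shared by 4.66% of all genes, and no member had the reverse pattern, which 1.41% of all genes had. Jag2 and Notch3 were marked in 3 libraries, Notch2 in 2, Dll3 in 1 and Notch4 in none. Presence was not tested gene by gene, because 4 libraries part into pairs in only 3 ways. By definition, Dll4 stays marked in untreated cells alone, and Notch1, Jag1 and Dll1 in all that remain, whichever library is left out. Leaving libraries out therefore does not test these patterns. Genes marked in some libraries only moved between patterns: without untreated replicate 1 Notch3 was marked with neomycin alone, without neomycin replicate 1 Jag2 joined Dll4, and without untreated replicate 2 Dll3 did.

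**Figure D1:**
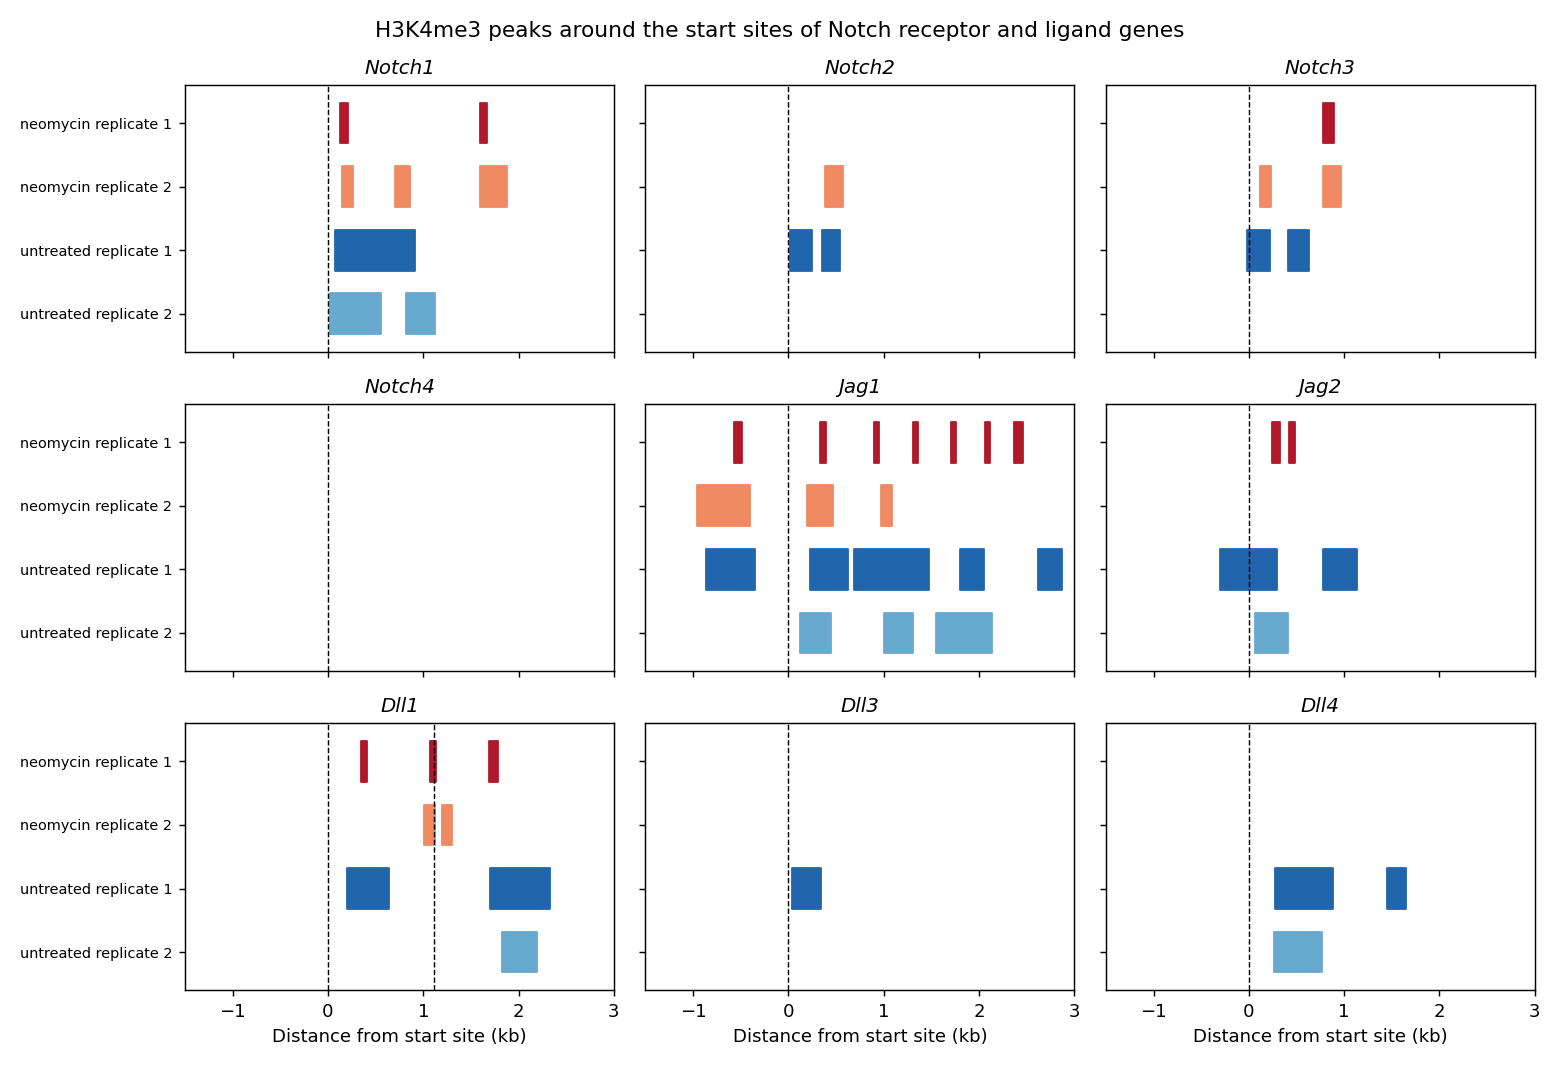
Each bar is 1 called H3K4me3 peak, drawn to scale by its distance in kb from the start site (dashed line, positive values inside the gene; Dll1 has 2 listed starts, with 0 at the upstream one), with the neomycin libraries above the untreated ones. Peaks of Notch1 begin within 143 bp inside the gene in all 4 libraries, Jag1 has peaks lying wholly upstream of its start in 3 libraries, and the Notch4 panel is empty.

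Among the receptors, Notch1, the main receptor of supporting cells, was marked in each library just inside the gene. Notch1 lies on chromosome 2 from 26457902 to 26503822 on the minus strand. Positions below are in bp from the start site, negative ones upstream. Neomycin replicate 1 had a peak from 126 to 214 bp with a pileup of 7, and neomycin replicate 2 had peaks from 143 to 257 and from 700 to 856 bp with pileups of 13 and 12. Untreated replicate 1 had 1 peak from 71 to 911 bp with a pileup of 17, and untreated replicate 2 had peaks from 20 to 559 and from 820 to 1122 bp with pileups of 15 and 9. The peaks nearest the start thus lay over one another, and 72 bp were under a peak in all 4 libraries. Among the 3638 genes marked in all 4 libraries, 40.9% had any such common base. The lncRNA gene Gm35978 starts on the opposite strand at -105 bp, inside the same start window. None of the Notch1 peaks covers that start, but these data do not assign them to 1 of the 2 genes. Both neomycin libraries had a further peak deeper in Notch1, from 1598 to 1670 bp and from 1590 to 1876 bp, and neither untreated library had one there.

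Bases of the Notch1 start window under a peak numbered 89 and 272 with neomycin, against 841 and 721 untreated. The groups did not overlap in this count. The share of all genes with this order in the start window was not counted. Over the gene and 1 kb either side, 53.0% of genes with a peak in some library had it. Within each list, among the genes marked in it, the Notch1 values stood at percentiles 39.4 and 71.3 with neomycin and 89.2 and 86.2 without. A longer minimum peak in the untreated lists moved together with these counts, and its part in them was not tested.

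Notch2, a receptor with an overlapping tissue range, lies on chromosome 3 from 98013538 to 98150367 on the plus strand and was marked in 1 library of each group. Neomycin replicate 2 had a peak from 380 to 571 bp, and untreated replicate 1 had peaks from 12 to 251 and from 355 to 542 bp. The second of these overlapped the neomycin peak. Neomycin replicate 1 and untreated replicate 2 had no peak in this gene of 136830 bp, and their nearest peaks to its start were 189 and 112 kb away.

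Notch3 lies on chromosome 17 from 32120820 to 32166896 on the minus strand and was marked in both neomycin libraries and in untreated replicate 1. The neomycin peaks lay from 779 to 894 bp in replicate 1 and from 118 to 235 and from 773 to 967 bp in replicate 2. In untreated replicate 1 they lay from -20 to 222 and from 410 to 633 bp. The peak further inside the gene was thus at the same place in both neomycin libraries and not under either peak of untreated replicate 1. Neomycin replicate 2 had 1 more peak inside Notch3, from 4256 to 4414 bp. Untreated replicate 2 had no peak in Notch3, and its nearest one lay 6.56 kb beyond the far end of the gene. Bases at the start numbered 116 and 313 with neomycin and 467 and 0 without, so the groups overlapped.

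Notch4 lies on chromosome 17 from 34564286 to 34588543 on the plus strand, and its start site had no peak in any library. Its peaks lay near the other end of the gene, from 22.8 to 22.9 kb in neomycin replicate 2, from 23.4 to 23.6 kb in untreated replicate 1 and from 23.3 to 23.7 kb in untreated replicate 2. The untreated peaks overlapped each other and not the neomycin peak, and neomycin replicate 1 had none in the gene. The next gene on the same strand, Gpsm3, starts 25.5 kb from the Notch4 start, beyond these peaks. The 2 untreated libraries also shared a peak at 28.1 to 28.4 kb, past the start of the neighbour Pbx2 at 28.0 kb. Read by strand, the peaks at Notch4 are therefore at its 3′ side, and none is a start-site peak.

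Among the ligands, Jag1, the Jagged ligand of the prosensory domain, had the widest spread of peaks. It lies on chromosome 2 from 137081451 to 137116520 on the minus strand. In the gene and the 1 kb around it, neomycin replicates 1 and 2 had 7 and 3 peaks covering 451 and 952 bp, and untreated replicates 1 and 2 had 6 and 4 peaks covering 2455 and 1464 bp. The peak closest inside the gene was found in every library, from 330 to 396 and from 194 to 465 bp with neomycin and from 231 to 622 and from 118 to 446 bp without. The libraries had 67 bp of it in common.

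Jag1 also had a peak upstream of its start in 3 libraries. It reached from -576 to -489 bp in neomycin replicate 1, from -962 to -403 bp in neomycin replicate 2 and from -864 to -348 bp in untreated replicate 1. With pileups of 10, 15 and 22, at percentiles 85.9, 91.7 and 96.0 of their own lists, it was the highest Jag1 peak of each of these libraries. Untreated replicate 2 had no peak there, although its first peak inside the gene stood at percentile 83.9 of its list. Peaks further inside also occurred in every library. In neomycin replicate 1 they formed a row of 5 short peaks between 900 and 2458 bp, in neomycin replicate 2 there was 1 from 969 to 1088 bp, and in the untreated libraries they ended at 2875 and 2139 bp. Each untreated library had 1 more peak far inside the gene, at 33.1 to 33.3 kb in replicate 1 and at 23.3 to 23.6 kb in replicate 2, and these did not coincide. Bases in the Jag1 start window numbered 203 and 864 with neomycin and 1226 and 331 without. The groups overlapped, and replicates of 1 group lay further apart than the neomycin and untreated means, which were 534 and 779 bp.

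Jag2, the Jagged ligand of nascent hair cells, lies on chromosome 12 from 112907803 to 112929812 on the minus strand. Neomycin replicate 1 had peaks from 244 to 330 and from 417 to 485 bp. Neomycin replicate 2 had none, and its nearest peak to the start was 84.6 kb away. Untreated replicate 1 had peaks from -303 to 291 and from 778 to 1130 bp, and untreated replicate 2 had 1 from 61 to 414 bp. The start site was thus marked in 1 neomycin library and in both untreated libraries, with 156 and 0 bp under peaks with neomycin and 818 and 354 bp without. Pileups were low for the untreated lists, 12 and 9 at most, at percentiles 32.9 and 19.2.

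Dll1, the Delta-like ligand of nascent hair cells, lies on chromosome 17 from 15367354 to 15376932 on the minus strand and has 2 listed starts, at 15376932 and 15375823. The libraries marked different parts of the gene. Both neomycin libraries had a peak over the downstream start, from 1069 to 1128 bp and from 1007 to 1121 bp of the upstream one, and untreated peaks did not reach it. Untreated replicates 1 and 2 had overlapping peaks further inside, from 1696 to 2330 and from 1830 to 2187 bp. A peak from 1694 to 1782 bp in neomycin replicate 1 overlapped the first of these and not the second. Inside the upstream start, neomycin replicate 1 had a peak from 349 to 406 bp and untreated replicate 1 one from 198 to 635 bp. No base of the Dll1 windows was under a peak in all 4 libraries, although each library had a peak there. Bases numbered 207 and 227 with neomycin and 852 and 280 without, and the groups did not overlap. As for Notch1, the share of all genes with this order in the start window was not counted. Over the gene and 1 kb either side, 53.0% of genes with a peak in some library had it.

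Dll3 lies on chromosome 7 from 28293555 to 28301785 on the minus strand. Its single peak was in untreated replicate 1, from 41 to 345 bp, with a pileup of 9 at percentile 3.74 of that list. When each gene was represented by its highest start-site peak in a library, this was the lowest rank among these genes. In the other 3 libraries the nearest peaks lay 10.2 and 10.0 kb (neomycin replicates 1 and 2) and 9.73 kb (untreated replicate 2) from the start, near the start of the neighbour Timm50.

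Dll4, a Delta-like ligand, lies on chromosome 2 from 119325784 to 119335666 on the plus strand and had peaks in the untreated libraries alone. The nearest peaks to its start were 25.4 and 36.7 kb away in neomycin replicates 1 and 2. In untreated replicate 1 a peak lay from 275 to 886 bp, with a pileup of 13 at percentile 45.1, and in untreated replicate 2 from 266 to 765 bp, with a pileup of 10 at percentile 35.2. Both began at nearly the same base. By pileup both ranked below the middle of their lists, whereas by bases in the start window, 612 and 500 bp, they stood at percentiles 72.8 and 64.4 of the genes marked in untreated replicates 1 and 2. Untreated replicate 1 had another peak from 1449 to 1644 bp. The lncRNA gene Gm14207 starts on the opposite strand 413 bp inside Dll4, under both untreated peaks, so these data do not assign the peaks to 1 of the 2 genes. When each list was reduced to its strongest 10520 peaks, Dll4 was no longer marked in both untreated libraries. Neither of its start-site peaks reached a -log10 q of 10.

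**Figure D2:**
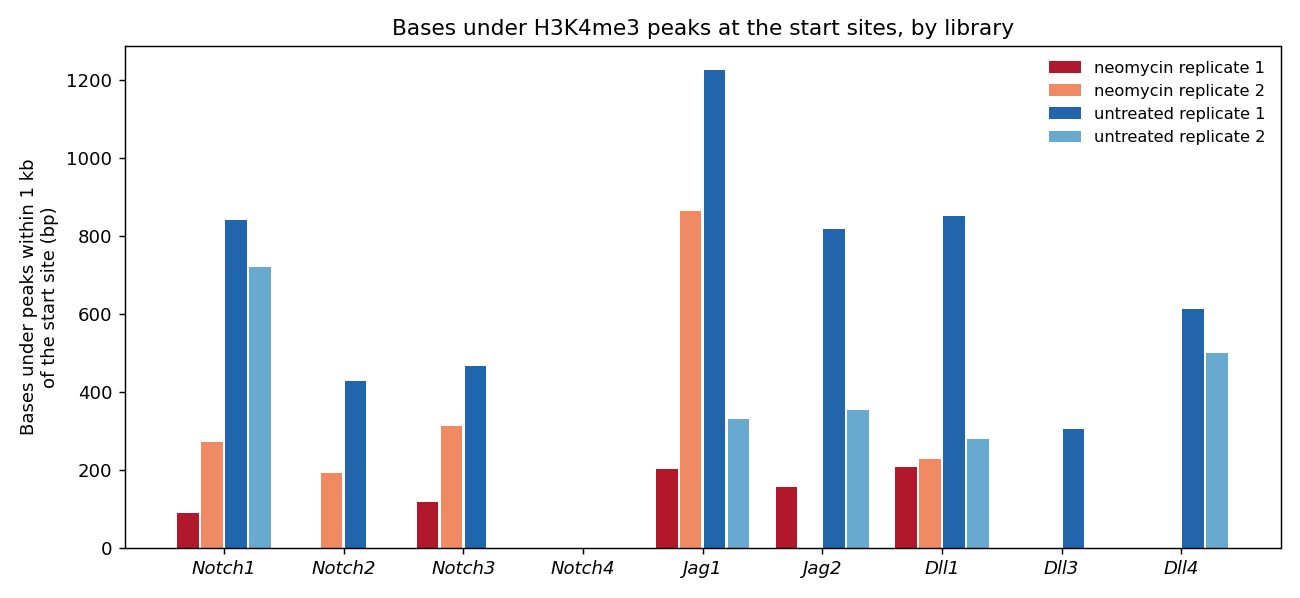
Bars give the bases under peaks in the 1 kb either side of the start site (bp, vertical axis from 0) for each gene in each of the 4 libraries, with no averaging. Untreated replicate 1 has the highest bar at each of the 8 marked genes, from 305 bp at Dll3 to 1226 bp at Jag1, and Dll4 has bars of 612 and 500 bp in the untreated libraries alone.

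Over the gene and 1 kb either side, 5 and 6 members had a peak in neomycin replicates 1 and 2 and 9 and 6 in untreated replicates 1 and 2, against 39.3%, 37.6%, 51.0% and 39.7% of all genes in the same order. All 9 had one in some library, as did 59.5% of all genes, and the same 3 genes as at the start site had one in every library, against 19.8%. Dll4 was again the 1 gene with peaks in untreated cells alone (4.5% of all genes), and none had them with neomycin alone (1.56%). In bases under peaks, 6 members had fewer in both neomycin libraries than in either untreated library, and none had more. These were Notch1, Notch4, Jag1, Jag2, Dll1 and Dll4. Of all genes with a peak in some library, 53.0% showed the first pattern and 2.94% the second, so that the direction in these genes is that of most genes in the lists. The exact two-sided permutation test over the 4 libraries gave p = 0.333 for each of the 6 genes, the smallest p that 2 against 2 allows.

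Domain length, taken as the total length of a gene's start-site peaks, could be compared at the 3 members marked in all 4 libraries, after each library was centred on its median over the 3638 such genes. Those medians were 125 and 236 bp in neomycin cells, against 570 and 468 bp in untreated cells, and the centring removes this difference, a median log2 difference of -1.59 without it. In limma, 0.0% of the 3638 genes passed a Benjamini-Hochberg adjusted p of 0.05, and 9.7% (353) had an unadjusted p under 0.05. Notch1 had 89 and 272 bp with neomycin and 841 and 843 bp without, a centred log2 difference of -0.85 ± 0.61 (SE, limma adjusted p = 0.712). Its centred values were lower in both neomycin libraries than in both untreated ones, but the share of all genes with this order was not counted. Jag1 had 203 and 952 bp with neomycin and 1705 and 633 bp without, a difference of 0.35 ± 0.64 (SE, limma adjusted p = 0.911). Dll1 had 207 and 227 bp with neomycin and 1073 and 358 bp without, a difference of 0.07 ± 0.63 (SE, limma adjusted p = 0.985). In centred values the groups overlapped for Jag1 and Dll1, although the uncentred Dll1 lengths did not, and the sign of the difference turned when 1 library was left out. For Jag1 it was -0.29 without neomycin replicate 2 and -0.32 without untreated replicate 2, and for Dll1 it was -0.28 without neomycin replicate 1 and -0.67 without untreated replicate 2. Without centring the differences were -2.44 for Notch1 (limma adjusted p = 0.0257), -1.24 for Jag1 and -1.52 for Dll1. With a window of 2.5 kb either side, which takes in the deeper neomycin peaks, the Notch1 difference was 0.08.

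The start sites of these genes also differed in CpG content, which the peaks were not used to choose. In the 300 bp window from 250 bases before to 50 after the start, Notch4 held 5 CpGs and Dll3 held 11, the lowest of the 10 member starts. The highest were Jag2 with 63 and Notch2 with 41, while Notch1, Jag1 and the downstream start of Dll1 held 23, 22 and 24. Over 21263 starts of protein-coding genes, the median was 3 CpGs at starts marked in no library and 17, 21, 24 and 26 at those marked in 1, 2, 3 and 4. The 2 members with the fewest CpGs were thus those with the fewest marked libraries, whereas Jag2 and Notch2, with the most, were marked in 3 and 2. None of the 10 member windows held TGGGAA, the core of the Rbpj binding site, on either strand, against 24.5% of all windows, and none held TATAAA on either strand, against 12.6%. The search says only that these letters are not in these windows.

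**Figure D3:**
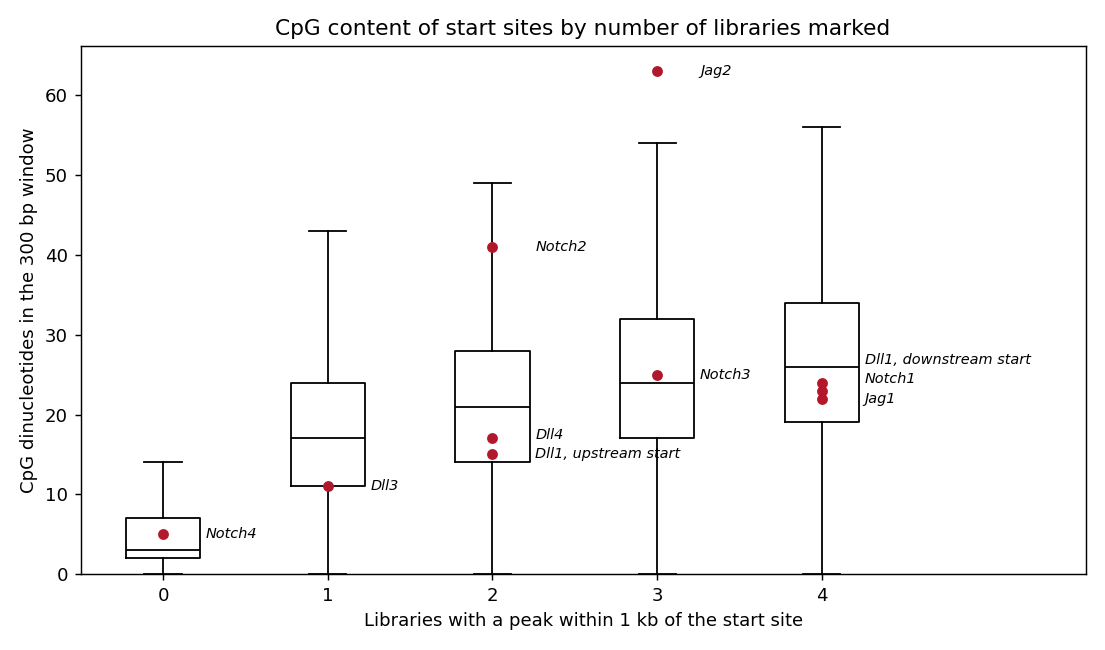
Red points give the CpG dinucleotides in the 300 bp window of each member start (vertical axis) by the number of libraries with a peak within 1 kb of that start (horizontal axis), over boxes for all 21263 starts (median, quartiles and whiskers to 1.5 interquartile ranges; farther values not drawn). Notch4, at 5 CpGs, lies in the unmarked group, whose median is 3, and Jag2, at 63, lies above the whisker of its group.

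Peaks of these genes lay mostly downstream of the start, as those of other genes did. Of the start-site peaks, 9 of 10 and 8 of 10 with neomycin had their summit downstream of the nearest listed start. So had 13 of 14 and 7 of 7 in the untreated replicates. Over genes with a single listed start the shares were 75.6% and 73.8% with neomycin and 77.3% and 79.8% without. The exceptions were the upstream Jag1 peak in 3 libraries and, in neomycin replicate 2, the Dll1 peak at its downstream start.

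Most other genes of the pathway were marked in some library. Of 40 other Notch pathway genes, 27 and 25 were marked in neomycin replicates 1 and 2, and 35 and 29 in untreated replicates 1 and 2, against 34.8%, 33.6%, 47.0% and 36.3% of all genes in the same order. In all, 37 were marked in some library, against 55.0% of all genes, and 17 in all 4, against 16.6%. Of these genes 9 have no listed start and were read at the gene end marked in more libraries. Untreated-only start-site peaks were found at 4 of the 40, against 4.66% of all genes, and neomycin-only peaks at 0, against 1.41%. The 4 were Neurl1b, a ubiquitin ligase that promotes ligand endocytosis, with 535 and 349 bp of peaks, Aph1a, a subunit of the gamma-secretase that frees the intracellular part of Notch, with 597 and 268 bp, Poglut1, which adds O-glucose to Notch, with 306 and 314 bp, and Dner, a neuronal transmembrane protein reported to bind Notch, with 211 and 493 bp. No library had a start-site peak at Mfng, a fringe glycosyltransferase, Dtx1, a ubiquitin ligase of Notch, or Dlk1, an atypical ligand. In the limma comparison of domain length 0 of 17 pathway genes passed, with a median log2 difference of -0.21, against -0.0058 over all genes.

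By step of the pathway, 3 ligand endocytosis genes, Mib1, Mib2 and Neurl1a, were marked in both neomycin libraries, and all 4 of the group in both untreated libraries. Single libraries marked 34.8% and 33.6% of all genes with neomycin and 47.0% and 36.3% without. Of 8 receptor cleavage genes, Furin alone was marked in all 4 libraries, against 16.6% of all genes. The sheddase Adam10, which makes the cut after ligand binding, had 48 and 0 bp of peaks with neomycin and 915 and 850 bp without. Other cleavage genes differed from it. Adam17, another sheddase, had 0 and 768 bp with neomycin and 529 and 252 bp without, and Psenen, a gamma-secretase subunit, had 0 and 133 bp with neomycin and no peak without. Rbpj, the DNA-binding partner of Notch, had 159 and 0 bp with neomycin and 1257 and 735 bp without. Adam10 and Rbpj thus lacked a peak in neomycin replicate 2, whereas Adam17 and Psenen had one there and none in neomycin replicate 1. Of the 5 target genes, Hes5, Hey1 and Hey2 were marked in all 4 libraries, against 16.6% of all genes. Hes1 was not marked in untreated replicate 2, and Heyl was marked in neomycin replicate 2 and untreated replicate 1. Hes1, Hey1, Heyl and Mib1 have no listed start and were read at the gene end marked in more libraries, which favours marking.

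**Figure D4:**
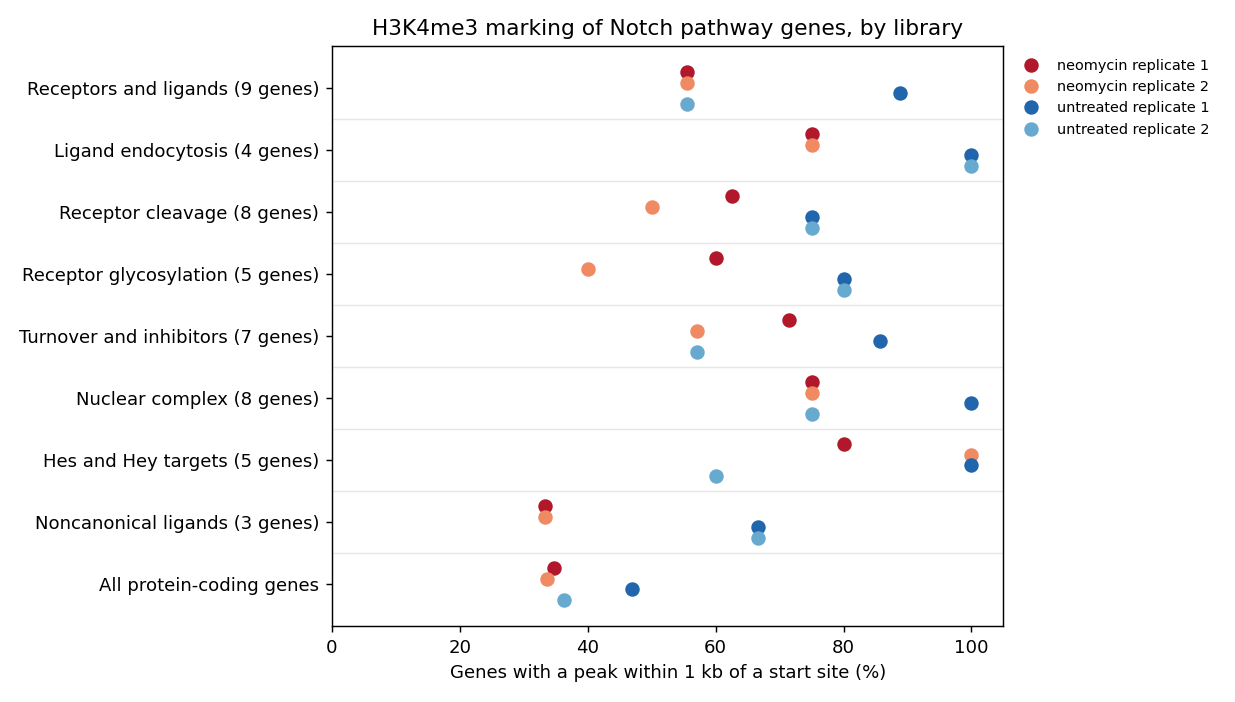
Points give the percentage of genes with a peak within 1 kb of a start site (horizontal axis) in each of the 4 libraries, for the receptors and ligands, 7 other groups of the Notch pathway and all protein-coding genes. Untreated replicate 1 marked 8 of 9 receptors and ligands against 5 in each other library, and among all genes it also has the highest share, 47.0%.

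Within those 40 genes, the ones whose bases at the start site were nearest to each member over the 4 libraries (Euclidean distance of log2 bases plus 1) were listed as a description. Dll4 was nearest to Neurl1b (distance 0.55) and Aph1a (0.90), Dll1 to Hes5 (0.40) and Rfng (1.05), and Notch1 to Furin (0.82) and Itch (0.97). Notch2 was nearest to Heyl (0.21) and Maml2 (1.06), Notch3 to Maml3 (0.85) and Psen2 (1.73), Jag1 to Rfng (1.32) and Mib1 (1.54), Jag2 to Pofut1 (1.01) and Rbpj (1.16), and Dll3 to Nrarp (0.21) and Dtx3 (6.50). With 4 libraries, these distances mostly restate which libraries had a peak.

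Markers of the sorted cells and of other cochlear cells were read the same way. Over all genes, the neomycin libraries marked 34.8% and 33.6% and the untreated ones 47.0% and 36.3%, and 16.6% were marked in all 4. Markers with no listed start, Lgr5 and Sox9 among them, were read at the gene end marked in more libraries. Of 10 supporting cell markers, Lgr5 and Jag1 among them, the neomycin libraries marked 9 and 10 and the untreated ones 10 and 9, with 8 shared by all 4. Hair cell markers had start-site peaks for 2 and 1 of 8 genes in neomycin cells and for 5 and 1 in untreated cells. Atoh1 was the 1 untreated-only gene of the 8, against 4.66% of all genes. Myo6 was marked in both neomycin libraries and in untreated replicate 1. Pou4f3 was marked in replicate 1 of each group, and Gfi1 and Pvalb in untreated replicate 1 alone. Myo7a, Otof and Lhx3 had no start-site peak in any library. Beside Dll4 and Notch4, 2 and 1 of 8 endothelial markers had one in neomycin cells and 1 and 0 in untreated cells. Flt1, a VEGF receptor, was marked with neomycin alone, the reverse of Dll4, with 53 and 143 bp with neomycin and 0 and 0 bp without. Of all genes, 1.41% had that pattern. Cdh5, Pecam1, Tek, Tie1, Erg and Emcn had no start-site peak in any library. Over the 8 endothelial markers, bases at start sites summed to 156 and 143 with neomycin and 259 and 0 without. Of 8 mesenchyme markers, 0 and 0 had a start-site peak in neomycin cells and 3 and 4 in untreated cells. Their summed bases were 0 and 0 in neomycin cells and 1143 and 2053 in untreated cells. Twist1, Prrx2 and Coch were untreated only, as Dll4 was, a pattern of 4.66% of all genes. Tbx18 was marked in untreated replicate 2 alone, and Pou3f4, Prrx1, Col1a1 and Col1a2 had no start-site peak in any library. The part of these cells in the Dll4 result was not tested. Of 6 macrophage markers none was marked in any library, and 3 and 2 of 6 glial markers were in neomycin cells, against 4 and 3 in untreated cells.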

How the data were processed

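Each H3K4me3 library came as its own list of peaks. The submitters' processing notes give mm10 as the build and list MACS2, Bowtie2, deepTools and CASAVA 1.4, without roles or parameters. The deposited columns are, per the file headers, a position and length in bp, the pileup signal at the summit, the fold enrichment ratio, and -log10 of the p-value and of the q-value, as the authors' caller made them. Pileup ranks are within a list only. Start sites and strands came from RefSeq promoter windows of GRCm38.p6 for 17492 genes. For the other 4395 the gene end with more marked libraries was taken, whatever their treatment. Domain length was compared with limma 3.58.1 in R 4.3.3, and other steps used Python 3.11.15, pandas 2.3.3 and numpy 2.4.6. Both steps were tested on simulated data. The 9 members are all named; other pathway genes were named by their pattern, by distance or by role. Adam10, Adam17, Psenen, Rbpj, Flt1 and the target genes were named after their values were seen. Members, lists and tests were chosen with earlier results of these data known.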

Additional observations from a re-analysis of the deposited data

How the results depend on the processing

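Counts of the 9 receptor and ligand genes are small, and most moved with some setting. Dll4, the 1 gene marked in the untreated cells alone, kept that pattern with start-site windows of 0.5 and 2.5 kb, with summits in place of overlaps (chosen after seeing the data), and over the gene with flanks of 0, 1 and 5 kb. With lists of equal length the count was 0 at the start site and 0 over the gene. With an overlap of at least 100 bp it was 2, Jag2 and Dll4. Every untreated peak was at least 187 bp long, but the median peak of neomycin replicate 1 was 70 bp. The Jag2 peaks there, of 87 and 69 bp, could not reach that overlap, nor could the start-site peaks of Notch1, Jag1 or Dll1. With a -log10 q minimum of 10 the count in untreated cells alone was 1, but that gene was Jag1. At that minimum 0 genes were marked in all 4 libraries at the start site or over the gene, against 3. It left 747 and 283 peaks in neomycin replicates 1 and 2, against 6279 and 2259 in untreated replicates 1 and 2. With an overlap of at least 100 bp 0 were marked in all 4 as well, and Dll1 dropped out of the 3 with the 0.5 kb window or with summits. When 1 library was left out, 0 to 1 genes were marked with neomycin alone, 1 to 2 in the untreated cells alone and 3 to 4 in all remaining libraries, at the start site and over the gene alike. By their definition these counts cannot fall when a library is left out.

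In limma, the number of genes passing for domain length was 0 of 3638. It was 1139 without centring, all shorter with neomycin, 2 with an overlap of at least 100 bp, and 0 to 423 when 1 library was left out (140 without neomycin replicate 1 and 423 without neomycin replicate 2). In those fits a group with 1 library is assumed to vary like the other. With the replicate number as a block it was 0, and the adjusted p was 0.757, 0.926 and 0.988 for Notch1, Jag1 and Dll1. Gene by gene, same-numbered libraries did not deviate together (r = -0.019 across genes, with each difference centred on its median). That centring removes any shift common to all genes, so r cannot show 1. In both groups replicate 1 had the longer list and the shorter minimum peak. The numbers were not taken to pair the libraries, and whether they do is unknown. The log2 difference of Notch1 was 0.084 with a window of 2.5 kb and -2.44 without centring. It was -1.24 for Jag1 and -1.52 for Dll1 without centring. Leaving out 1 library gave -1.18 to -0.46 for Notch1, -0.32 to 1.04 for Jag1 and -0.67 to 0.71 for Dll1. Domain length could not be compared at that q minimum, since 0 of 21887 genes were then marked in all 4 libraries, nor for Dll1 with a window of 0.5 kb, summits alone or a 100 bp overlap, nor for Notch1 and Jag1 with that overlap. The causes of these shifts were not tested. Depth is unknown, so what it limits cannot be given.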
